A study of Mus musculus with 13 samples.

Results

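Tumors that regrew in mice treated with 17-DMAG were compared with primary tumors of untreated mice. The groups were taken from the sample labels and held 3 recurrent 17-DMAG tumors and 3 primary untreated tumors, 6 of the 13 libraries of the series. All came from female FVB/N-TgN mice of the line 202Mul/J, which carry MMTV-HER2/neu and are labelled Wild type for genotype. In them a rat HER2/Neu cDNA is driven by the long terminal repeat promoter of the mouse mammary tumor virus in the mammary epithelium. These mice develop mammary tumors spontaneously. The recurrent group had been injected with 17-DMAG at 20 mg/kg into the peritoneum 3 times per week, had responded, and had regrown tumors while injections went on. The primary group had received neither 17-DMAG nor stavudine, and both groups drank plain water. Drug exposure, the time that passed and regrowth therefore cannot be told apart in this comparison. The ages at collection were not given in the sources used here. The labels name individual tumors but do not tie each to its own mouse, so the p-values measure the spread between these samples.

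17-DMAG is a soluble relative of geldanamycin, and it occupies the ATP pocket of HSP90. HSP90 is a chaperone that holds many kinases in a form in which they can be activated, and the receptor HER2 is among the clients that depend on it most. When HSP90 is blocked, its clients are degraded and the transcription factor HSF1 is released, which turns on genes of other chaperones such as HSP70 and HSP27. The quinone ring of the drug is reduced by the enzyme Nqo1, and the drug can be exported by P-glycoprotein, the product of the Abcb1 genes. Tumors that grow in the presence of such a drug are of interest for the state of the HER2 receptor, of its downstream kinases, of the chaperones and of the cell cycle.

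RNA was read from 40786989 to 49134339 counts per library in the 6 tumors, and 16870 of 24421 genes passed the filter on low counts. Levels are given as CPM, the counts of a gene relative to the total of its library, scaled with TMM factors, and in the order of replicates 1, 2 and 3 of each group. Differences are log2 fold changes of recurrent over primary tumors with their standard error (SE), n = 3 in each group. A count of 3 in these libraries, used as the limit of detection, corresponded to 0.0633 to 0.0733 CPM and covers counting error only. Recurrent replicate 1 stood apart from the rest. Its Spearman rho across genes was 0.923 to 0.942 with the other 5 tumors, whose rho among themselves was 0.958 to 0.992, and it held the highest value of the 6 tumors for 31.7% of genes and the lowest for 31.9%. The highest rho joined tumors of different groups, primary replicate 1 and recurrent replicate 3. List medians are given with their value without 1 named tumor or with their range over the fits that each left out 1 of the 6 tumors.

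No gene passed the test. edgeR's quasi-likelihood test called 0 of 16870 genes (0%) at a Benjamini-Hochberg adjusted p under 0.05, and the smallest adjusted p was 0.509. Before adjustment, p was under 0.05 for 808 genes with higher levels (4.79%) and 827 with lower levels (4.9%) in recurrent tumors. With 1 tumor left out these counts ran from 357 to 1263 and from 345 to 1151 and were least even without recurrent replicate 2, at 1263 higher and 619 lower. All 3 recurrent tumors lay above all 3 primary tumors for 1201 genes (7.12%) and below them for 1398 genes (8.29%). DESeq2 called 21 genes as higher (0.126%) and 40 as lower (0.239%) of 16707 with an adjusted p, and limma voom called 0 with 1598 genes at an unadjusted p under 0.05. The values that follow are therefore levels and differences of single tumors and lists, read against these background shares. Fewer cells of a type and less RNA per cell cannot be told apart in bulk tumors.

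Among the 40 gene lists, the proliferation genes held the largest share of members with separate groups. All 32 tested genes of the cell cycle list had a log2 fold change above 0, from 0.01 to 0.89, with a median of 0.49 beside -0.01 over all genes. For 23 of the 32 the 3 recurrent tumors lay above the 3 primary tumors, against a background of 7.12%, and for 0 they lay below. The shifts were small. An unadjusted p under 0.05 was found for 4 of the 32, against 4.79% of all genes.

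Promoters of 3 members and of a heat shock gene are shown. The first 3 belong to the proliferation list, a list whose members were all above 0, and the last to a gene whose tumors separated by group. The sequences run from 250 bases before to 50 bases after the transcript start, are credited to RefSeq on GRCm38.p6, and are written 5′ to 3′ on the strand of the gene. In the first 3, capitals mark the cell cycle homology region (CHR, TTTGAA or its reverse complement TTCAAA) and the CCAAT box (CCAAT or ATTGG), elements known from promoters of mitotic genes. In the last, capitals mark the inverted repeat of the heat shock element, GAA and TTC in either order with 2 bases between them, known as the kind of site that HSF1 binds.
Cdc20, chr4:118437294-118437593, minus strand: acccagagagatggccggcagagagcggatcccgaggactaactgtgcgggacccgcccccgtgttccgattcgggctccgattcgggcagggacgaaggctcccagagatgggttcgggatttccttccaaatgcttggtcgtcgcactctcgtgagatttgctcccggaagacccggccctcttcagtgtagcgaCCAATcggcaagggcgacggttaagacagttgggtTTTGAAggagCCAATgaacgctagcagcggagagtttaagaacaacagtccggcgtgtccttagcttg
Kif11, chr19:37376132-37376431, plus strand: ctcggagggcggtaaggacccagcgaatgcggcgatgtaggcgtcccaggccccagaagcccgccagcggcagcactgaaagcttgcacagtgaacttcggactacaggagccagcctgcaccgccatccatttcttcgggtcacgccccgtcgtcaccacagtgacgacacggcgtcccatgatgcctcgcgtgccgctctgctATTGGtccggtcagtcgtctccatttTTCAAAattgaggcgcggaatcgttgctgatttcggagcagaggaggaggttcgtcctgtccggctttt
Mki67, chr7:135716330-135716629, minus strand: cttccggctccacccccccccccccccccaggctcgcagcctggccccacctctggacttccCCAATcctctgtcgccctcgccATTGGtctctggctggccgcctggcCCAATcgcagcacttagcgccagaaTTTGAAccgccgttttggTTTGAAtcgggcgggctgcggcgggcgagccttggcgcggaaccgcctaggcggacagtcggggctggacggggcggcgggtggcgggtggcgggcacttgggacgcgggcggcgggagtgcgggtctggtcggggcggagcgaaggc
Hspb1, chr5:135887669-135887968, plus strand: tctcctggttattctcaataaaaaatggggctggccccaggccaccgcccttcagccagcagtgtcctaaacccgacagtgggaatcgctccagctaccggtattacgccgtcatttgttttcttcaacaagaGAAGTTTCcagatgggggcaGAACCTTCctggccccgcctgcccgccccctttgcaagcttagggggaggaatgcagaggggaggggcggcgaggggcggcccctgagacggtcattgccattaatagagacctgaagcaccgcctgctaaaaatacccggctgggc

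Counted from the annotated start, the CHR began at position -18 in Cdc20 and -19 in Kif11, and a CCAAT box began upstream of it at -53 in Cdc20 and -45 in Kif11. Cdc20 held another CCAAT match at -8. Mki67 held CHR matches at -116 and -98 and 3 CCAAT matches farther upstream, and Hspb1 held heat shock elements at -117 and -97. Both strands were searched, and no printed match overlaps another. RefSeq promoters were at hand for 25 of the 32 proliferation genes. Both cell cycle motifs were found together in 13 of their 26 promoters, compared with 2284 of all 32851 promoters (6.95%). The CHR, with or without the other motif, was in 17.9% and the CCAAT box in 37.4% of all promoters. The heat shock element was in 14 of 27 promoters of the 19 heat shock genes matched, of 22 listed, and in 15.1% of all promoters. These matches describe letters in a window and not binding.

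Kif11, the kinesin that pushes spindle poles apart, was at 41.4, 28.3 and 37.9 CPM in the primary and 61.7, 55.7 and 51.9 CPM in the recurrent tumors, a log2 fold change of 0.65 (SE 0.27). Cdc20, the activator of the anaphase-promoting complex, was at 29.8, 12.7 and 17.0 CPM in the primary and 34.0, 34.5 and 37.1 CPM in the recurrent tumors, a log2 fold change of 0.83 (SE 0.35). Its locus overlaps Elovl1, and reads of overlapping genes cannot be assigned with certainty because the strand setting of the counting was not stated. In both genes the recurrent tumors were close together and all above the highest primary tumor, while primary replicate 2 was the lowest of the 6. Mki67, the gene of the Ki-67 antigen, was at 448, 368 and 459.9 CPM in the primary and 552, 530.0 and 532 CPM in the recurrent tumors, so that the groups were separate with a difference of 0.34 (SE 0.28). Mcm4, a subunit of the replicative helicase, was at 43.0, 34.1 and 36.5 CPM in the primary and 57.7, 41.2 and 52.3 CPM in the recurrent tumors. Recurrent replicate 2 lay below the highest primary tumor for Mcm4, which had the smallest p of the list (unadjusted p = 0.0204) at a difference of 0.41 (SE 0.15). The 9 members whose groups overlapped were the helicase genes Mcm2, Mcm3, Mcm4, Mcm5 and Mcm6, the nucleotide synthesis genes Rrm2 and Tyms, the replication clamp gene Pcna, and Ccnb2, a mitotic cyclin, and they are named after their values were seen.

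Apart from rescaling, a gene whose groups are separate stays so when 1 tumor is left out. Counts of separate genes in such fits therefore cannot test the separation. Without recurrent replicate 1, 25 of 32 genes had recurrent tumors above all primary tumors, where 14.3% of all genes did. The median in that fit was 0.40. An unadjusted p under 0.05 was then reached by 0 of them, against 2.76% of all genes. Without primary replicate 2, 23 lay apart in the higher direction, against 10.5% of all genes. In that fit 0 of them had an unadjusted p under 0.05, against 386 of all 16789 genes in the higher direction. Over the 6 fits with 1 tumor left out the median ran from 0.38 to 0.63.

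The same contrast in mice that drank stavudine, a nucleoside inhibitor of reverse transcriptase given at 1 mg/mL, used 5 other tumors and shared no library. There, 31 of the 32 genes were lower in recurrent than in primary tumors, with a median of -1.08. An unadjusted p under 0.05 was reached by 24 of them, against 4.64% of all genes. The difference between the arms was tested as an interaction in the same edgeR fit. It called 0 genes over the table (0%), and 25 of the 32 proliferation genes had an unadjusted interaction p under 0.05 in the direction of a lower recurrence difference under stavudine, against 4.01% of all genes. The interaction test uses again the values of the arm without stavudine, in which this list stood out. Genes of a list are also not independent replicates. Mki67 was at 327, 506 and 439.9 CPM in primary stavudine tumors and at 209 and 88.7 CPM in recurrent tumors on stavudine. Kif11 was at 36.8, 53.5 and 47.3 CPM and at 29.9 and 13.5 CPM in the same tumors. For both genes each recurrent tumor on stavudine lay below every primary tumor on stavudine, and replicate 2 was the lower. That tumor also stood apart in its makeup, with skeletal muscle genes summing to 6256 CPM and luminal genes to 3895 CPM, compared with 5611 to 6752 CPM of luminal genes in the other 10 tumors, and the part of this in the proliferation values was not tested.

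**Figure D1:**
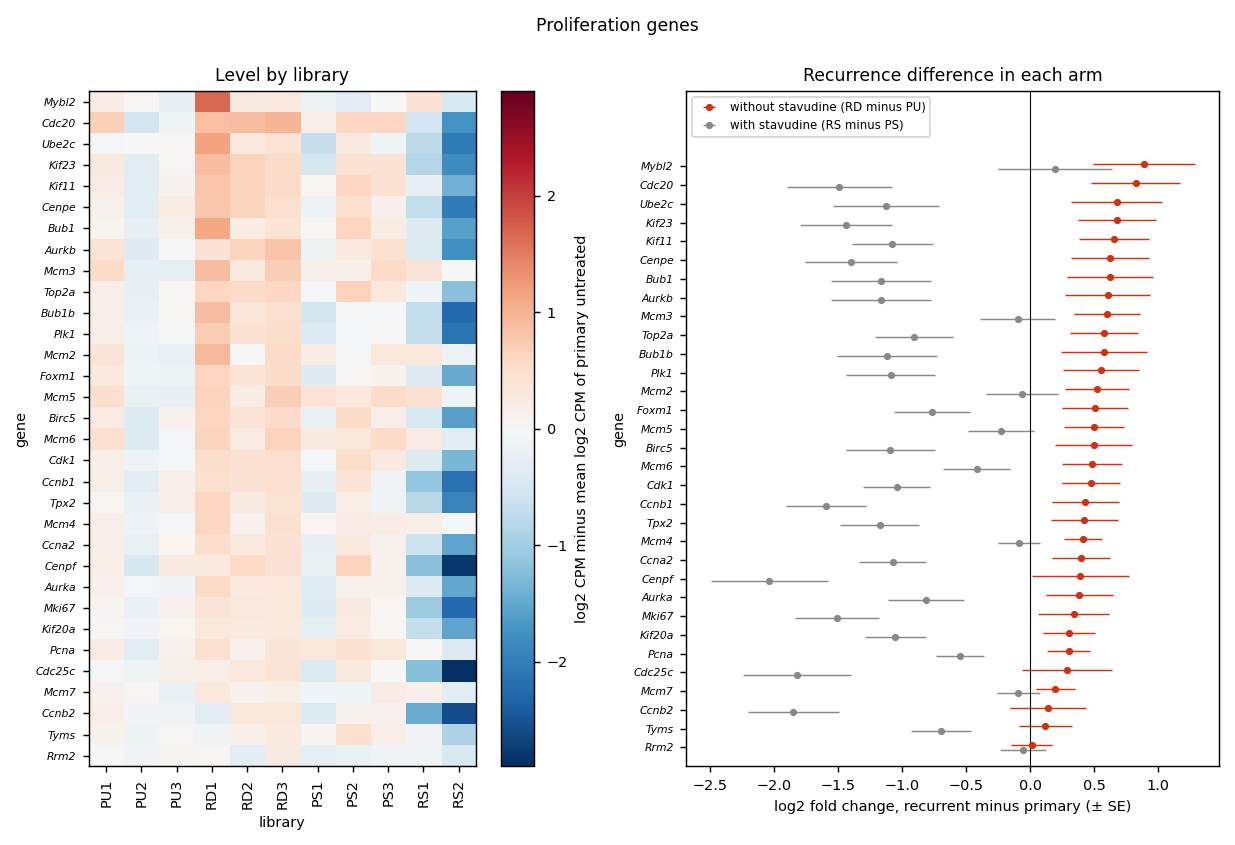
Left, log2 CPM of each proliferation gene in each of the 11 tumors, minus the mean log2 CPM of the 3 primary untreated tumors (PU; RD, recurrent 17-DMAG; PS, primary stavudine; RS, recurrent 17-DMAG plus stavudine). Right, log2 fold changes of recurrent over primary tumors with their SE, in the arm without stavudine (3 against 3) and with it (2 against 3). All 32 red points lie above 0, and 31 of the 32 grey points lie below it.

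Genes that set the cell cycle entry gate were also higher in part. Of 21 genes of G1 cyclins, RB proteins and CDK inhibitors, 4 had an unadjusted p under 0.05 in the higher direction and 0 in the lower. Of all genes, 4.79% and 4.9% did. The list median was 0.23 (0.10 to 0.45 with 1 tumor left out). Rb1, the retinoblastoma protein that holds E2F factors in check, was at 98.6, 61.0 and 61.6 CPM in the primary and 206, 133 and 130.3 CPM in the recurrent tumors, a difference of 1.09 (SE 0.31) with no overlap. Its locus overlaps Lpar6. In the stavudine arm Rb1 was likewise higher in recurrent tumors, at 398 and 188 CPM against 91.7, 106 and 108 CPM. E2f2, an activating E2F factor, was at 6.18, 2.77 and 4.12 CPM in the primary and 8.53, 6.54 and 9.01 CPM in the recurrent tumors, and Rbl1, the RB relative p107, at 38.6, 26.6 and 31.9 CPM in the primary and 45.5, 42.1 and 41.8 CPM in the recurrent tumors, both without overlap. Of death and survival genes, Bak1, a pore-forming killer of the BCL2 family that overlaps Ggnbp1, was higher by 0.74 (SE 0.23) and Bcl2l2, the survival protein BCL-w, differed by -0.57 (SE 0.16). Bak1 was at 44.9, 32.7 and 34.1 CPM in the primary and 82.7, 46.2 and 57.2 CPM in the recurrent tumors. Bcl2l2 was at 86.6, 102 and 104 CPM in the primary and 51.4, 68.5 and 77.0 CPM in the recurrent tumors. Neither gene had overlapping groups, while the median of the 24 genes of the list was 0.24, and 0.07 without recurrent replicate 1. Of 18 p53 targets, 3 were higher at an unadjusted p under 0.05 (4.79% of all genes). The list median was 0.02, and -0.11 without recurrent replicate 1. The death receptor gene Fas was at 5.86, 3.09 and 4.05 CPM in the primary and 8.95, 12.4 and 7.59 CPM in the recurrent tumors, with no overlap.

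RNA of the HER2 receptor gene was lower in the recurrent tumors. Erbb2, whose count may include transcripts of the rat cDNA and whose locus overlaps Mien1, was at 10246, 20386 and 17136 CPM in the primary and 3903, 8507 and 10864 CPM in the recurrent tumors, a log2 fold change of -1.04 (SE 0.39) with an unadjusted p of 0.0259. The groups overlapped, because primary replicate 1 lay below recurrent replicate 3, and the lowest value was in recurrent replicate 1. The primary stavudine tumors, at 9573, 11429 and 9521 CPM, lay near the recurrent tumors. Recurrent tumors on stavudine were at 13771 and 8162 CPM, on either side of those values, a log2 fold change of 0.11 in that arm. Erbb3, the kinase-poor partner of HER2, was at 405, 415 and 344 CPM in the primary and 201, 525 and 419.7 CPM in the recurrent tumors, a difference of -0.02 (SE 0.30) whose sign turned under RLE scaling. Over 15 receptors and ligands of the family the median was -0.08 (-0.21 to 0.01 with 1 tumor left out). At an unadjusted p under 0.05, 1 gene was higher (4.79% of all genes) and 1 lower (4.9%). The former was the ligand gene Areg, at 0.0844, 0 and 0 CPM in the primary and 2.05, 0.0928 and 0.355 CPM in the recurrent tumors, so that the primary tumors were at 0 or near the limit of detection and recurrent replicate 1 held most of the level. Lrig1, a brake on ErbB receptors whose locus overlaps Slc25a26, was at 64.3, 105 and 92.8 CPM in the primary and 72.6, 60.4 and 62.5 CPM in the recurrent tumors, with overlap.

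Genes that report on MAPK signalling below the receptor had a median of -0.28 (-0.41 to -0.15 with 1 tumor left out), with 12 of 16 below 0. Dusp6, the phosphatase that feeds back on ERK, was at 697, 704 and 983 CPM in the primary and 158, 533 and 613 CPM in the recurrent tumors, a difference of -0.87 (SE 0.45). All recurrent tumors were lower than all primary tumors for Dusp6, and replicate 1 was lower than the others. Phlda1 was at 118, 273 and 320.3 CPM in the primary and 133, 104 and 128 CPM in the recurrent tumors, with primary replicate 1 among the recurrent tumors. Of the list of other receptor tyrosine kinases and ligands, Pdgfra and Axl were highest in recurrent replicate 1. Pdgfra, a receptor of mesenchymal cells, was at 29.5, 12.5 and 21.5 CPM in the primary and 85.9, 31.0 and 34.1 CPM in the recurrent tumors, with separate groups, and Axl at 48.3, 36.3 and 34.1 CPM in the primary and 113, 38.9 and 47.7 CPM in the recurrent tumors, with overlap. The median of that list of 28 genes was 0.47, and 0.08 without recurrent replicate 1. Summed over the list, however, the primary tumors were at 2947, 2130 and 2396 CPM and the recurrent tumors at 2569, 3100 and 2968 CPM. In this sum recurrent replicate 1 was the lowest recurrent tumor and lay within the primary range.

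**Figure D2:**
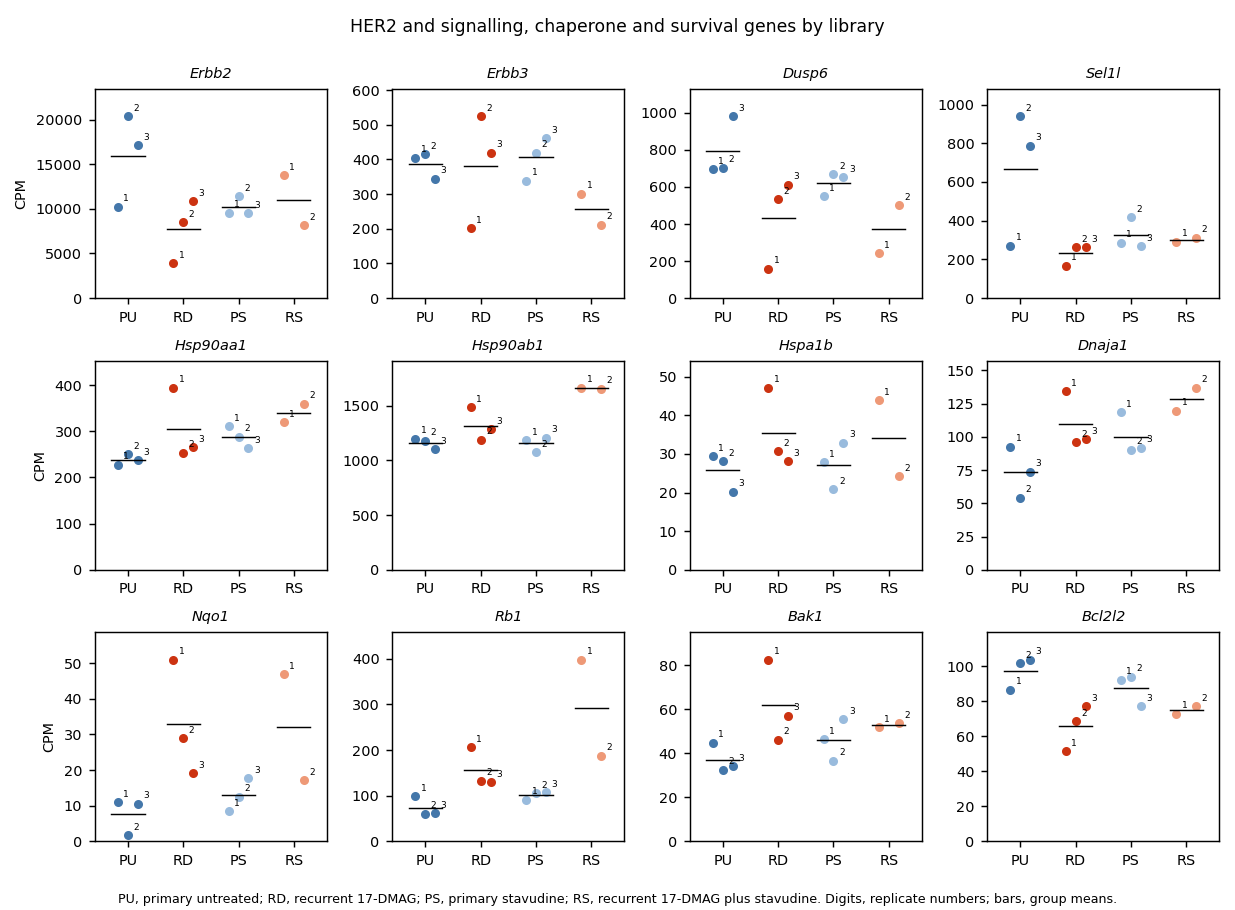
CPM of 12 genes in each tumor, with digits for replicate numbers and bars for group means (PU, primary untreated; RD, recurrent 17-DMAG; PS, primary stavudine; RS, recurrent 17-DMAG plus stavudine). Nqo1, Rb1, Bak1 and Bcl2l2 show no overlap between PU and RD, while Erbb2 and Hspa1b overlap.

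Among the chaperones, 1 small heat shock gene separated the groups clearly. Hspb1, which encodes HSP27 (chromosome 5, 135887919 to 135889563 of GRCm38), averaged 14.8 ± 1.34 CPM (SD, n = 3) over the primary tumors and 24.4 ± 1.20 CPM (SD, n = 3) over the recurrent tumors. The single values were 16.2, 14.7 and 13.5 CPM in the primary and 25.4, 24.8 and 23.1 CPM in the recurrent tumors, a log2 fold change of 0.72 (SE 0.17). The tumors within each group lay close together and the gap between the groups was wider than either range. In the stavudine arm the same gene was at 17.0, 18.3 and 23.7 CPM in primary and 43.2 and 61.6 CPM in recurrent tumors. Dnaja1, an HSP40 that feeds clients to HSP70 and whose locus overlaps Gm6297, was at 92.4, 54.2 and 73.7 CPM in the primary and 134, 96.1 and 98.3 CPM in the recurrent tumors, a difference of 0.58 (SE 0.21). These were the 2 of 22 genes of the heat shock list with an unadjusted p under 0.05, and the 2 without overlap. Of all genes, 4.79% and 7.12% were so in the higher direction. The inducible HSP70 genes Hspa1a and Hspa1b, close paralogs that can share reads, differed by 0.33 (SE 0.32) and 0.45 (SE 0.29) with overlapping groups. Hspa1b was at 29.4, 28.1 and 20.2 CPM in the primary and 47.1, 30.8 and 28.1 CPM in the recurrent tumors. Hsf1 was at 25.2, 37.7 and 25.9 CPM in the primary and 33.9, 24.0 and 26.2 CPM in the recurrent tumors. The median of the list was 0.18, and 0.03 without recurrent replicate 1.

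The HSP90 genes had small differences. Hsp90aa1, the inducible cytosolic form, was at 227, 249.999 and 238 CPM in the primary and 394, 254 and 266 CPM in the recurrent tumors, a difference of 0.35 (SE 0.17), so that the separation between the groups rested on narrow margins except in recurrent replicate 1. Hsp90ab1, the constitutive form, was at 1197, 1182 and 1099.8 CPM in the primary and 1485, 1189 and 1283 CPM in the recurrent tumors, a difference of 0.19 (SE 0.13) with overlap. Trap1, the mitochondrial HSP90, was at 85.1, 89.3 and 95.0 CPM in the primary and 66.4, 79.9 and 82.7 CPM in the recurrent tumors, lower in all recurrent tumors with a difference of -0.23 (SE 0.10), and its locus overlaps Dnase1. The cochaperone gene Ptges3, which encodes p23, was at 114, 118 and 96.6 CPM in the primary and 160.4, 119 and 122 CPM in the recurrent tumors, again separate by a narrow margin. Over the 19 genes the median was 0.06 (0.02 to 0.17 with 1 tumor left out). Without overlap, 3 were above and 2 below, against 7.12% and 8.29% of all genes.

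Nqo1, the quinone reductase that acts on 17-DMAG, had the largest log2 fold change of the 15 tested genes of quinone reduction and drug efflux. It was at 10.97, 1.68 and 10.6 CPM in the primary and 51.0, 29.0 and 19.1 CPM in the recurrent tumors, a log2 fold change of 2.09 (SE 0.69) with an unadjusted p of 0.0133 and an adjusted p of 0.509. Every recurrent tumor lay above every primary tumor, and primary replicate 2 was far below the others. In the stavudine arm it was at 8.45, 12.5 and 17.7 CPM in primary and 46.9 and 17.2 CPM in recurrent tumors, which overlapped. Abcb1a and Abcb1b, the paralogous P-glycoprotein genes that can share reads, were low, and Abcb1a also overlaps Rundc3b. Abcb1a was at 1.90, 1.90 and 1.38 CPM in the primary and 5.57, 1.53 and 1.66 CPM in the recurrent tumors and Abcb1b at 2.87, 2.61 and 2.65 CPM in the primary and 3.74, 1.28 and 2.73 CPM in the recurrent tumors, with overlap for both. The list median was 0.22, and Nqo1 alone of the 15 had an unadjusted p under 0.05 (4.79% of all genes in the higher direction). Without recurrent replicate 1 the median was -0.07, with 6 genes above and 9 below 0. In the higher direction 0 were then at an unadjusted p under 0.05 (2.76% of all genes).

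NRF2, a factor that answers to oxidants and electrophiles, has Nqo1 among its targets, yet its list of 21 genes was split. At an unadjusted p under 0.05, 4 were higher (4.79% of all genes) and 4 lower (4.9%). The list median was 0.03 (-0.05 to 0.19 with 1 tumor left out). Txnrd1, thioredoxin reductase, was at 123, 89.5 and 73.5 CPM in the primary and 173, 135 and 132 CPM in the recurrent tumors (its locus overlaps Eid3), and Pgd, of the pentose phosphate pathway, at 110.2, 55.2 and 68.9 CPM in the primary and 126, 116 and 113 CPM in the recurrent tumors. Slc7a11, the cystine importer, was at 3.96, 3.16 and 3.33 CPM in the primary and 10.9, 8.33 and 5.24 CPM in the recurrent tumors. All 3 separated the groups in the higher direction. Osgin1, in contrast, was at 9.09, 18.2 and 14.8 CPM in the primary and 6.26, 6.29 and 8.41 CPM in the recurrent tumors, lower in every recurrent tumor with a difference of -1.01 (SE 0.30).

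Inflammatory targets of NF-kB were higher as a group, chiefly in recurrent replicate 1. Of 35 tested subunits and targets, 32 were above 0, and the median was 0.55. An unadjusted p under 0.05 was found for 9 in the higher direction (4.79% of all genes) and 1 in the lower (4.9%). Nfkbie, an inhibitor of NF-kB that is also its target, was at 6.12, 2.94 and 4.56 CPM in the primary and 18.6, 9.51 and 6.70 CPM in the recurrent tumors, with no overlap. Tnfaip2 was at 7.70, 4.84 and 5.50 CPM in the primary and 26.2, 8.96 and 8.32 CPM in the recurrent tumors, with no overlap either. Mmp9, a matrix protease, was at 0.506, 0.261 and 0.127 CPM in the primary and 6.99, 0.325 and 1.154 CPM in the recurrent tumors, where recurrent replicate 2 lay within the primary range. Nfkb1, the gene of the p50 subunit, was at 102, 84.9 and 85.1 CPM in the primary and 126, 98.1 and 106 CPM in the recurrent tumors. Without recurrent replicate 1 the median was 0.21, 2 genes had an unadjusted p under 0.05 in the higher direction (2.76% of all genes), and 8 of 35 lay apart in that direction (14.3% of all genes) with 2 in the other (13.3%).

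Antigen presentation and interferon genes were lowest in 1 primary tumor. For MHC class I presentation, 14 of 15 genes were above 0 with a median of 0.51, and 4 separated the groups (7.12% of all genes). Tap2, a subunit of the peptide transporter, was at 59.1, 55.2 and 62.0 CPM in the primary and 108, 69.9 and 73.7 CPM in the recurrent tumors, a difference of 0.51 (SE 0.18). Tapbp, tapasin, was at 253, 164 and 242 CPM in the primary and 289, 313 and 337 CPM in the recurrent tumors, and neither gene had overlapping groups. Summed over the list, the primary tumors were at 3331, 1016 and 3674 CPM and the recurrent tumors at 2567, 4415 and 4993 CPM, so that primary replicate 2 was far below the rest and recurrent replicate 1 lay within the primary range. Without primary replicate 2 the median was 0.22, and 4 of 15 lay apart in the higher direction (10.5% of all genes). Without recurrent replicate 1 the median was 0.77, and 13 of 15 lay apart in the higher direction (14.3% of all genes). The median was 0.86 without primary replicate 3. In the stavudine arm it was -0.40, with 11 of the 15 genes lower in recurrent tumors. Of 33 type I interferon genes, 29 were above 0, with a median of 0.35 that was -0.01 without primary replicate 2. For 0 of them was an unadjusted p under 0.05 found (4.79% of all genes in the higher direction, 4.9% in the lower). In the higher direction 2 lay apart (7.12% of all genes). Ifit2 was at 11.7, 6.95 and 12.8 CPM in the primary and 19.9, 20.5 and 18.9 CPM in the recurrent tumors, and Isg15, a ubiquitin-like protein of this response, at 7.85, 1.503 and 6.73 CPM in the primary and 7.41, 7.17 and 13.2 CPM in the recurrent tumors. Of 26 genes of cytosolic nucleic acid sensing and L1 control, 5 lay apart in the higher (7.12% of all genes) and 3 in the lower direction (8.29%). An unadjusted p under 0.05 was found for 1 in each direction, against 4.79% and 4.9% of all genes. Mavs, the adaptor of RNA sensors on mitochondria, was at 60.3, 66.3 and 63.8 CPM in the primary and 35.9, 51.7 and 48.3 CPM in the recurrent tumors, lower in every recurrent tumor with a difference of -0.49 (SE 0.15).

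Genes of the unfolded protein response of the endoplasmic reticulum were lower against 1 primary tumor above all. Of 19, 16 were below 0 with a median of -0.34, 3 had an unadjusted p under 0.05 in that direction (4.9% of all genes), and 4 separated the groups (8.29% of all genes). Sel1l, part of the machinery that retrieves misfolded proteins for degradation, was at 271, 940.2 and 787 CPM in the primary and 167, 263 and 262 CPM in the recurrent tumors, a difference of -1.53 (SE 0.41). Primary replicate 1 lay just above the recurrent tumors and far below the other primary tumors, and the primary stavudine tumors were at 286, 418 and 266 CPM. Herpud1 was at 106, 156 and 142 CPM in the primary and 35.9, 91.8 and 88.8 CPM in the recurrent tumors, and Atf6, a sensor of this response, at 103, 132 and 94.3 CPM in the primary and 71.7, 87.5 and 90.8 CPM in the recurrent tumors, both lower in every recurrent tumor. Summed over the list, primary replicate 2 was at 8161 CPM and the other 5 tumors between 4661 and 5095 CPM. Without primary replicate 2 the median turned to 0.07, with 6 genes apart in the higher direction (10.5% of all genes) and 4 in the lower (10.6%).

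Lipid synthesis genes of the milk-making epithelium were lower in part. Of 21 genes, 3 were lower (4.9% of all genes) and 0 higher at an unadjusted p under 0.05. In the lower direction 5 lay apart (8.29% of all genes), and the list median was -0.25. Gpam, which starts triglyceride synthesis, was at 56.8, 55.7 and 57.2 CPM in the primary and 37.2, 35.9 and 41.5 CPM in the recurrent tumors, a difference of -0.57 (SE 0.14). The 3 primary tumors were almost equal and all recurrent tumors were well below them. Lpin1, a later step of the same route whose locus overlaps Ntsr2, was at 82.2, 223 and 74.7 CPM in the primary and 49.3, 38.3 and 46.0 CPM in the recurrent tumors, with primary replicate 2 far above the rest. Agpat6 was at 177, 287 and 182 CPM in the primary and 137, 137 and 153 CPM in the recurrent tumors, lower in every recurrent tumor. Without recurrent replicate 1, 7 of the genes lay apart in the lower direction (13.3% of all genes) and the median was -0.33. Without recurrent replicate 2 the median was -0.03, with 9 genes above and 12 below 0. The 24 cholesterol synthesis genes had a median of -0.01, the 22 hypoxia and glycolysis genes 0.02, and the 22 genes of the integrated stress response 0.05. Without recurrent replicate 1 these medians were 0.06, -0.37 and -0.10. Of the sugar genes, Pfkl, a subunit of phosphofructokinase, was at 443, 672 and 516 CPM in the primary and 348, 385 and 407 CPM in the recurrent tumors, and Slc2a1, the glucose transporter GLUT1, at 109.6, 57.2 and 71.4 CPM in the primary and 169, 107 and 106 CPM in the recurrent tumors. The former was lower in every recurrent tumor, while Slc2a1 overlapped.

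Collagen and mesenchymal genes were higher on average, but in recurrent replicate 1 above all. Of 19 collagen genes, 18 were above 0 with a median of 1.09, which was -0.17 without that tumor. Col1a1, the main fibrillar collagen, was at 215, 279.7 and 105 CPM in the primary and 1708, 109 and 289 CPM in the recurrent tumors. Col16a1 was at 73.1, 87.5 and 51.2 CPM in the primary and 324, 197 and 94.7 CPM in the recurrent tumors, and Col12a1 at 142, 143 and 81.2 CPM in the primary and 573, 182 and 218 CPM in the recurrent tumors. These last 2 of the 19 genes, and no other collagen, separated the groups, against 7.12% of all genes in that direction. All 23 mesenchymal genes and EMT factors were above 0, with a median of 1.14 that was -0.10 without recurrent replicate 1. Of the 23, 1 gene separated the groups, against 7.12% of all genes. That gene was Cyr61, a matricellular target of YAP, at 29.3, 35.1 and 27.4 CPM in the primary and 179, 61.4 and 51.1 CPM in the recurrent tumors. Snai1 was at 1.65, 1.00 and 0.467 CPM in the primary and 11.9, 1.44 and 1.24 CPM in the recurrent tumors, and the smooth muscle actin gene Acta2 at 20.1, 19.6 and 9.93 CPM in the primary and 95.8, 16.01 and 32.8 CPM in the recurrent tumors. TGF-beta ligands, receptors and targets, 23 genes, had a median of 0.36, and 0.15 without it. In the stavudine arm the collagen median was 1.155 and the mesenchymal median 1.27, from other tumors. The 30 WNT and Notch genes had a median of 0.07 (0.02 to 0.22 with 1 tumor left out). In each direction 2 lay apart, against 7.12% of all genes in the higher and 8.29% in the lower. Wnt5b was at 7.66, 15.3 and 6.81 CPM in the primary and 57.2, 29.7 and 16.7 CPM in the recurrent tumors, higher in every recurrent tumor with a difference of 1.80 (SE 0.58), and its locus overlaps Fbxl14.

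**Figure D3:**
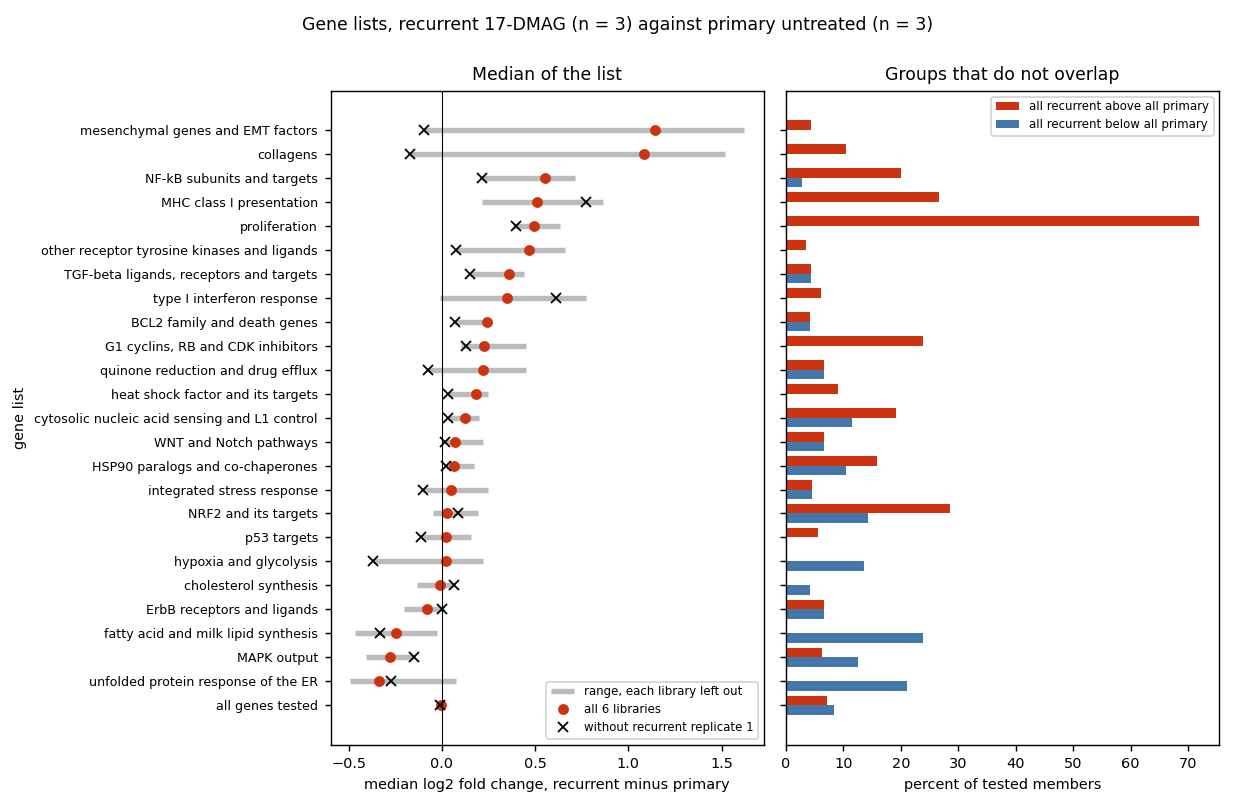
Left, median log2 fold change of recurrent 17-DMAG over primary untreated tumors for each gene list (points), its range when each of the 6 tumors was left out (bars), and its value without recurrent replicate 1 (crosses). Right, percent of tested members whose groups did not overlap. The proliferation list stands apart on the right with 23 of 32 genes, and collagens and mesenchymal genes cross 0 on the left without recurrent replicate 1.

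Cell type markers give the makeup of the samples beside these values. The tumors expressed luminal epithelial genes throughout, 5611, 6138 and 5826 CPM summed over 21 genes in primary and 5634, 6284 and 5907 CPM in recurrent tumors, and no marker was at 0. Pan-leukocyte genes, 10 in number, summed to 361, 567 and 419 CPM and 698, 472 and 369 CPM. All 10 were above 0 and 4 separated the groups (7.12% of all genes in the higher direction). Yet Ptprc, the common leukocyte antigen CD45, was at 20.5, 19.3 and 22.8 CPM in the primary and 62.0, 23.9 and 24.1 CPM in the recurrent tumors, a wide gap in recurrent replicate 1 alone. The median of the list was 0.71, and 0.10 without that tumor. Macrophage genes summed to 872, 921 and 953 CPM and 1647, 706 and 849 CPM, and neutrophil genes to 78.3, 249 and 18.1 CPM and 789, 101 and 78.8 CPM. Dendritic cell genes, which include MHC class II, summed to 91.5, 79.3 and 132 CPM and 309, 185 and 178 CPM, without overlap. Cd74 and H2-Ab1 held most of every sum and were the only 2 of the 11 genes that lay apart (7.12% of all genes in the higher direction). Cd74, the invariant chain, was at 57.7, 55.1 and 88.6 CPM in the primary and 218, 127 and 125 CPM in the recurrent tumors, and H2-Ab1 at 19.3, 15.2 and 26.5 CPM in the primary and 73.1, 36.8 and 38.0 CPM in the recurrent tumors. T cell genes summed to 19.1, 11.8 and 13.7 CPM and 19.5, 18.7 and 15.2 CPM. Of these, 0 of 14 had an unadjusted p under 0.05 (4.79% of all genes in the higher direction, 4.9% in the lower). The part of these cells in the NF-kB, MHC and collagen values was not tested.

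Milk protein genes summed to 16214, 17857 and 7049.9 CPM in primary and 24490.5, 8172 and 7744 CPM in recurrent tumors, and basal and myoepithelial genes to 904, 1073 and 1053 CPM and 1687, 978 and 931 CPM. In each of these lists recurrent replicate 1 was the highest of the 6. Skeletal muscle genes summed to 4814, 27.9 and 64.3 CPM and 38.4, 34.6 and 1699 CPM. Muscle was thus high in primary replicate 1 and recurrent replicate 3, the tumors with the highest rho between them, and low in the other 4. The 16 muscle genes had a median of -1.12, which was 4.66 without primary replicate 1 and -6.27 without recurrent replicate 3. Endothelial genes summed to 227, 201 and 177 CPM and 475, 114 and 184 CPM, and adipocyte genes to 206, 50.4 and 59.0 CPM and 102, 31.1 and 136 CPM, with overlap. NK cell genes were at 2.15 to 9.71 CPM, B cell genes at 5.58 to 8.85 CPM, plasma cell genes at 57.9 to 112 CPM, mast cell genes at 0.558 to 26.5 CPM and epidermal genes at 14.9 to 26.7 CPM over the 6 tumors. Counts of 0 in all 6 tumors were found for 2 NK cell, 1 neutrophil and 2 epidermal genes.

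**Figure D4:**
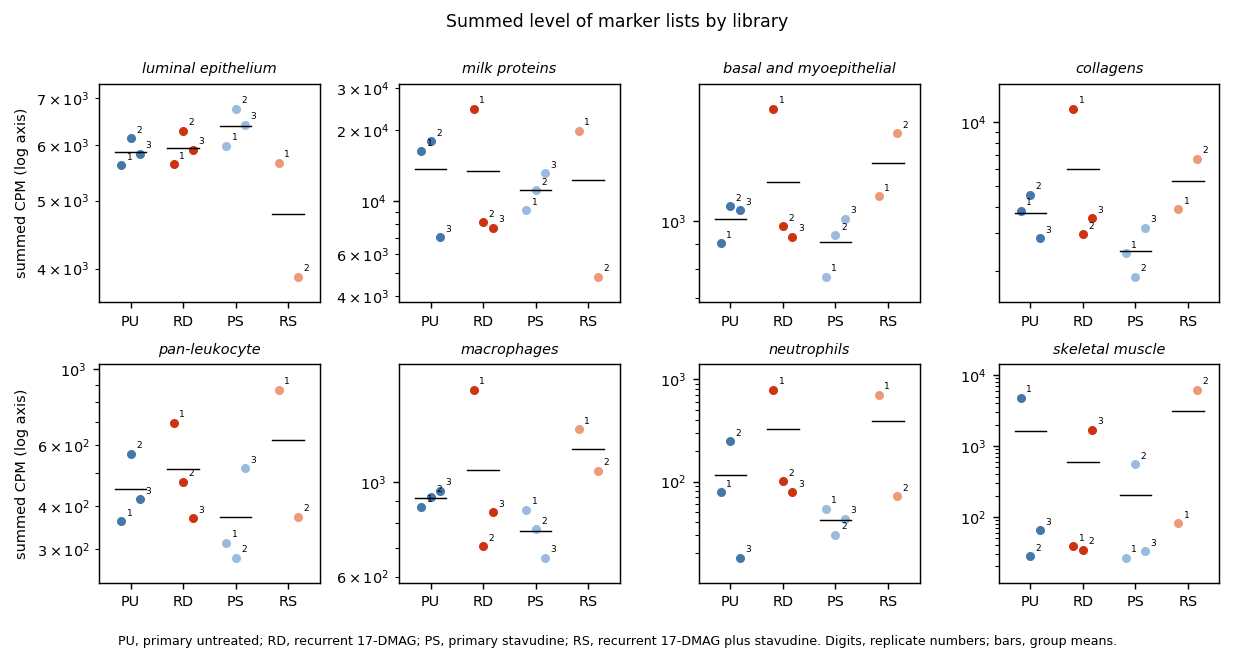
Summed CPM of 8 marker lists in each tumor on a log axis, with digits for replicate numbers and bars for group means (PU, primary untreated; RD, recurrent 17-DMAG; PS, primary stavudine; RS, recurrent 17-DMAG plus stavudine). Recurrent replicate 1 is the highest of the 6 PU and RD tumors for milk, basal, collagen, leukocyte, macrophage and neutrophil genes, and muscle genes are high in PU replicate 1 and RD replicate 3.

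Single genes were ranked by their unadjusted p among those with separate groups and a mean log2 CPM of at least 1. The 8 highest-ranked genes with higher levels were Lurap1l, Ankrd44, Tlr4, Lysmd2, Glipr2, Ifnlr1, Aldh1l2 and Hspb1. Their log2 fold changes ran from 0.57 to 1.73 and their unadjusted p-values from 0.000785 to 0.00205, with an adjusted p of 0.509 for each from edgeR. DESeq2 gave each of them an adjusted p of at most 0.0405. Tlr4, the receptor of bacterial lipopolysaccharide (chromosome 4, 66827551 to 66846581), was at 33.8, 25.2 and 25.1 CPM in the primary and 54.9, 50.9 and 47.0 CPM in the recurrent tumors, a difference of 0.86 (SE 0.19). Ifnlr1, a subunit of the receptor for lambda interferons (chromosome 4, 135686457 to 135708181), was at 24.1, 17.3 and 20.7 CPM in the primary and 40.8, 40.03 and 28.8 CPM in the recurrent tumors. Aldh1l2, a mitochondrial enzyme of folate metabolism (chromosome 10, 83487447 to 83534146), was at 16.5, 7.49 and 9.25 CPM in the primary and 31.7, 30.3 and 24.3 CPM in the recurrent tumors, a difference of 1.38 (SE 0.33). Lurap1l (chromosome 4, 80910686 to 80954301) was at 22.7, 18.3 and 21.3 CPM in the primary and 32.8, 30.2 and 29.6 CPM in the recurrent tumors. Lysmd2 was at 7.55, 4.92 and 4.20 CPM in the primary and 22.7, 16.3 and 11.8 CPM in the recurrent tumors, and Glipr2 at 2.49, 1.48 and 1.85 CPM in the primary and 10.3, 4.55 and 4.37 CPM in the recurrent tumors. Ankrd44, a regulatory subunit of protein phosphatase 6, was at 14.4, 11.1 and 13.3 CPM in the primary and 20.8, 19.8 and 19.6 CPM in the recurrent tumors. Only genes with separate groups were ranked, so the recurrent tumors other than replicate 1 lay above all primary tumors by selection. This cannot test whether the differences of these genes rest on recurrent replicate 1. In the stavudine arm 7 of the 8 differed in the same direction, where 51.8% of all genes were higher. Of the 8, 2 had an unadjusted interaction p under 0.05 in edgeR, against 1322 of all 16870 genes. The recurrence difference was lower under stavudine for Ankrd44 and higher for Hspb1. The interaction test shares the values that ranked the genes. Lurap1l was at 28.8, 32.5 and 30.0 CPM and Tlr4 at 42.6, 39.8 and 43.7 CPM in primary tumors on stavudine, above all primary untreated tumors.

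The 8 highest-ranked genes with lower levels were Ptger1, H6pd, Agt, Aldh5a1, Pycr1, Qtrt1, Fastkd1 and Esrrg, with log2 fold changes from -0.47 to -2.53 and unadjusted p-values from 0.000486 to 0.00102. DESeq2 gave each an adjusted p of at most 0.0159. Ptger1, a prostaglandin E2 receptor (chromosome 8, 83666644 to 83672756), was at 30.1, 33.4 and 31.8 CPM in the primary and 22.4, 23.04 and 23.2 CPM in the recurrent tumors, tight within both groups, and the assignment of reads at its locus is uncertain. H6pd, which makes NADPH inside the endoplasmic reticulum (chromosome 4, 149979474 to 150009023), was at 77.4, 92.9 and 85.2 CPM in the primary and 41.8, 50.4 and 54.0 CPM in the recurrent tumors, a difference of -0.80 (SE 0.16). Pycr1, the last step of proline synthesis (chromosome 11, 120638998 to 120643748), was at 18.5, 27.3 and 30.8 CPM in the primary and 8.43, 8.52 and 14.4 CPM in the recurrent tumors, a difference of -1.29 (SE 0.26). Agt, angiotensinogen (chromosome 8, 124556587 to 124569706), was at 15.4, 69.5 and 74.0 CPM in the primary and 8.31, 6.98 and 12.1 CPM in the recurrent tumors, a difference of -2.53 (SE 0.51). Primary replicates 2 and 3 were far above the rest for Agt, and primary replicate 1 lay just above the recurrent tumors. It was the 1 gene that edgeR called when primary replicate 1 was left out (log2 fold change -2.97, adjusted p = 0.0336). Esrrg, an orphan nuclear receptor (chromosome 1, 187608510 to 188214885), was at 66.2, 145 and 118 CPM in the primary and 28.2, 36.6 and 54.3 CPM in the recurrent tumors. Aldh5a1, which clears succinate semialdehyde and overlaps 4932702P03Rik, was at 18.2, 22.4 and 23.2 CPM in the primary and 10.7, 13.8 and 13.8 CPM in the recurrent tumors. The tRNA-modifying gene Qtrt1 was at 23.6, 26.3 and 29.7 CPM in the primary and 15.7, 17.7 and 18.5 CPM in the recurrent tumors, and Fastkd1, a mitochondrial RNA gene, at 17.4, 25.5 and 24.1 CPM in the primary and 13.6, 12.2 and 13.6 CPM in the recurrent tumors. With stavudine, 6 of the 8 differed in the same direction, where 48.2% of all genes were lower. Those 6 differences were small, with log2 fold changes from -0.04 to -0.24. In edgeR 7 of the 8 had an unadjusted interaction p under 0.05, against 1322 of all 16870 genes, but that test shares the values that ranked the genes. H6pd was at 65.4, 47.2 and 45.9 CPM in primary and 46.2 and 50.5 CPM in recurrent tumors on stavudine.

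**Figure D5:**
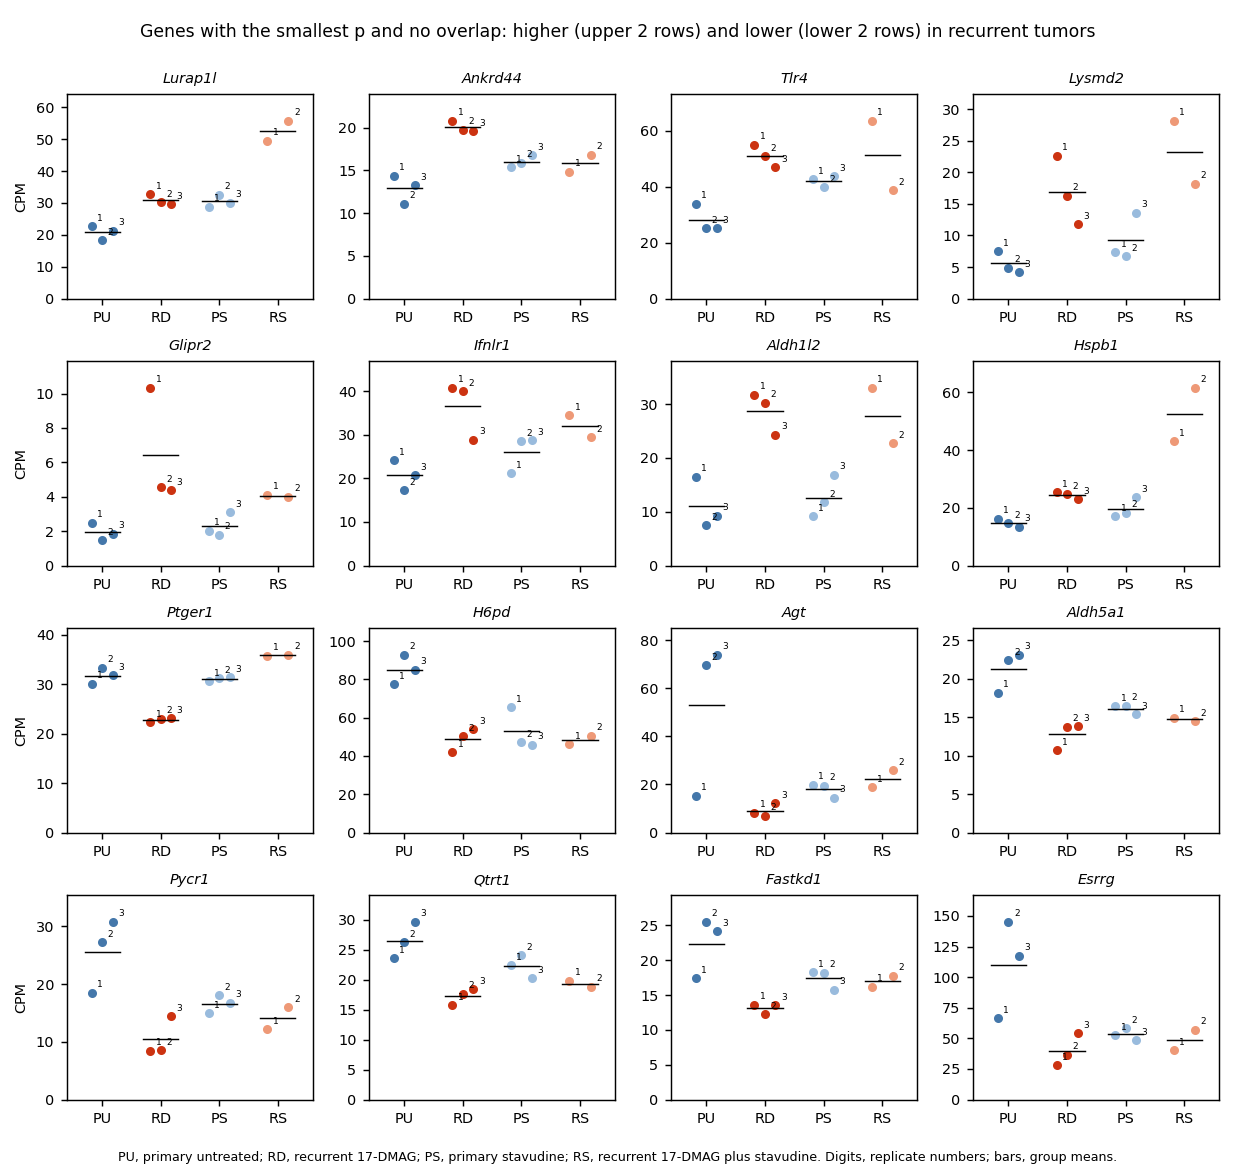
CPM of the 16 highest-ranked genes in each tumor, with digits for replicate numbers and bars for group means (PU, primary untreated; RD, recurrent 17-DMAG; PS, primary stavudine; RS, recurrent 17-DMAG plus stavudine). The upper 8 genes are higher and the lower 8 lower in RD than in PU with no overlap, and for H6pd, Agt and Esrrg the PS tumors lie nearer to RD than to the PU mean.

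The largest differences among the genes that DESeq2 called often rested on 1 or 2 tumors. St8sia1, a ganglioside sialyltransferase, was at 3.02, 63.3 and 63.2 CPM in the primary and 2.004, 1.49 and 1.62 CPM in the recurrent tumors. Scgb2b27, a secretoglobin, was at 32.4, 215 and 1248 CPM in the primary and 21.6, 23.2 and 29.8 CPM in the recurrent tumors, and Odam at 1.01, 32.0 and 5.39 CPM in the primary and 0.342, 0.441 and 1.18 CPM in the recurrent tumors. The groups were separate for St8sia1 and Scgb2b27 and overlapped for Odam. In all 3 genes primary replicate 1 was nearer to the recurrent tumors than to the other primary tumors. In the higher direction, Dgki, a diacylglycerol kinase, was at 1.20, 0.370 and 0.552 CPM in the primary and 11.5, 5.04 and 4.26 CPM in the recurrent tumors, and Apol10b at 1.24, 0.196 and 0.552 CPM in the primary and 10.1, 3.92 and 4.73 CPM in the recurrent tumors, with separate groups. The transcript 5730559C18Rik was at 1.88, 1.44 and 0.743 CPM in the primary and 63.4, 4.15 and 1.73 CPM in the recurrent tumors, and Mir6236 at 0.211, 0.959 and 0.615 CPM in the primary and 4.81, 0.139 and 47.2 CPM in the recurrent tumors, so that 1 recurrent tumor held most of the level of each and the groups overlapped.

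Genes that separated the groups without stavudine were then followed in the stavudine arm, which shares no tumor with them. Of the 1201 genes that were higher, 612 (51%) were also higher there, compared with 51.8% of all genes, and their median was 0.01 beside 0.63 in the arm without stavudine. Of the 1398 that were lower, 854 (61.1%) were also lower there, compared with 48.2% of all genes, with medians of -0.08 and -0.45. These shares are descriptions across genes, which are not independent replicates.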

How the data were processed

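Gene expression was measured as raw counts per gene in 13 libraries, as deposited by the authors. Per the labels and the processing notes, ribosomal RNA was depleted from total RNA, libraries were made with dUTP second strands, and the authors used bcl2fastq 2.20, STAR and featureCounts (Subread 1.6.2) on GRCm38 (mm10). The strand setting was not given in the sources used here. Here, R 4.3.3 with edgeR 4.0.16 was used: filterByExpr on the groups, TMM factors, and the robust quasi-likelihood test over the 11 tumors with 1 mean per group, two-sided, adjusted by Benjamini and Hochberg over 16870 genes, with calls at 0.05. The interaction and the stavudine arm came from the same fit, and the 2 glands were left out. The tests were checked on simulated counts. RLE scaling, no filter, DESeq2 1.42.0, voom in limma 3.58.1, only the compared groups, no Rn45s, a replicate block and each of the 6 tumors left out were tried.

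The 40 gene lists and the rules for members and named genes were chosen with earlier results of these data known. The named genes came from 4 rules. The first took the 8 genes with the smallest p in each direction among those with separate groups and a mean log2 CPM of at least 1. The others, with no such condition on the groups, took up to 3 genes with the smallest p of each program list, 15 fixed genes, and the 4 largest changes in each direction that DESeq2 called at the same mean level, of which 1 is not reported here. Members of marker lists were named beside the level of their list. Replicates of a group differed by more than sampling noise, with a chi-square per degree of freedom of at least 46.0 for every pair. Depth was 40786989 to 49134339 counts in the 6 tumors. Of 24421 symbols, 24313 matched RefSeq, whose GRCm38.p6 positions and promoters were used.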

Additional observations from a re-analysis of the deposited data

How the results depend on the processing

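The count of called genes, 0, was 0 under RLE scaling, no filter, limma voom, the compared groups alone, no Rn45s and the replicate block, 61 with DESeq2, and 0 to 1 with 1 tumor left out, the 1 being Agt without primary replicate 1. In the stavudine arm the count of 0 became 331 with DESeq2, 2 with the compared groups alone, and 0 to 18 with 1 of the 6 tumors without stavudine left out of the shared fit, the 18 without recurrent replicate 1. The interaction count of 0 became 189 with DESeq2 and 0 to 1 with 1 tumor left out, the 1 without recurrent replicate 1, and could not be fitted on the compared groups alone. At an unadjusted p under 0.05 the comparison held 1635 genes, 731 without primary replicate 2, 827 without primary replicate 3, 1006 without recurrent replicate 1, 1882 without recurrent replicate 2 (67.1% of them higher, 49.4% with all tumors) and 2351 without primary replicate 1. The cause was not tested.

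Of 105 named genes, 101 kept their direction in all 13 settings. Erbb3 turned from -0.02 to 3.4e-06 under RLE scaling, 2.0e-06 with DESeq2, 0.0046 without Rn45s, 0.0094 without primary replicate 1, 0.041 without primary replicate 2 and 0.31 without recurrent replicate 1, over a range of -0.30 to 0.31 with 1 tumor left out. Hsf1 turned from -0.08 to 0.14 without primary replicate 2 and 0.05 without recurrent replicate 2 (range -0.21 to 0.14). Abcb1a turned from 0.76 to -0.085 without recurrent replicate 1 (range -0.085 to 1.09), and Abcb1b from -0.07 to 0.28 without recurrent replicate 2 (range -0.41 to 0.28). The share of genes without overlap was 15.4%, and 15.3% under RLE scaling. The median of all genes moved by less than 0.1 in every setting.

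Replicate numbers did not pair the tumors. Deviations of same-numbered tumors from their group means correlated at -0.05, 0.01 and 0.05 across genes, and each recurrent tumor correlated best with a primary tumor of another number. The replicate block left 0 calls, with 1522 genes at an unadjusted p under 0.05. Counts of the lists without single tumors were added after seeing the data.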
